A study of Homo sapiens with 6 samples.

Results

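The HOX genes were examined for peaks of V5-GSE1 in NB4, a line grown from a patient's acute promyelocytic leukaemia, with and without inhibition of the histone demethylase LSD1. The members were 38 HOX genes, HOXA2 to HOXA13 (10 genes), HOXB1 to HOXB13 (10 genes), HOXC4 to HOXC13 (9 genes) and HOXD1 to HOXD13 (9 genes), among 20033 protein-coding genes of GENCODE version 44. A peak was counted when it overlapped, by at least 1 bp, the span of a member extended by 20 kb on each side. By this rule 18 of the 21401 peaks of the DMSO list and 3 of the 13233 peaks of the MC2580 list belonged to the HOX clusters. Each cluster was described over a window from 20 kb before its first member to 20 kb after its last, and over flanks of 200 kb beyond the window.

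All libraries came from NB4 cells transduced with the lentiviral vector pLEX_307, either empty (EV) or carrying the coding sequence of GSE1 transcript variant 2 with a V5 tag. GSE1-transduced cells received DMSO or MC2580, an LSD1 inhibitor, at 2 µM for 24 h, and EV cells were labelled as untreated. The series held 6 libraries, namely 3 ChIPs with an anti-V5 antibody and 3 inputs, with 1 library in each group. The tagged protein was added to the cells and immunoprecipitated through its tag, so that the peaks describe V5-GSE1 and not the endogenous protein. The data were 2 peak lists, and EV cells and inputs entered them as the background for peak calling. Since each condition had a single library, spread between replicates could not be measured, no test between conditions was made, and differences between the lists are differences between these libraries. Both lists were called against the same EV library. The identity of the cells cannot be checked from peak lists. Sequencing depth was unknown, and peak numbers and scores depend on it.

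HOX genes encode homeodomain transcription factors that give positional identity along the body axis, and their order within each cluster follows the paralogue groups 1 to 13. In blood they are active in stem and progenitor cells and are switched down as cells mature. HOXA9, HOXA10 and the cofactor gene MEIS1 are known for their high expression in several forms of acute myeloid leukaemia, whereas acute promyelocytic leukaemia is known for low HOX expression. The clusters are rich in CpG islands and are controlled by the opposing Polycomb and Trithorax (KMT2A) complexes. GSE1 is a chromatin protein that associates with LSD1.

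The sequences at the centres of the peaks on which the results turn are given here in hg38 on the plus strand, each 300 bp long. The first set holds the highest-scoring peak of the HOXC window, which lay at HOXC10, the highest-scoring peak of the HOXD window, which lay in HOXD10, and the peak at HOXC12. Together these were the DMSO window peaks with a consensus word for the haematopoietic factors PU.1 (GAGGAAGT) or RUNX (TGTGGTTT) within 200 bp at their centre. Capitals mark the words.
HOXC10 peak, DMSO, chr12:53986257-53986556: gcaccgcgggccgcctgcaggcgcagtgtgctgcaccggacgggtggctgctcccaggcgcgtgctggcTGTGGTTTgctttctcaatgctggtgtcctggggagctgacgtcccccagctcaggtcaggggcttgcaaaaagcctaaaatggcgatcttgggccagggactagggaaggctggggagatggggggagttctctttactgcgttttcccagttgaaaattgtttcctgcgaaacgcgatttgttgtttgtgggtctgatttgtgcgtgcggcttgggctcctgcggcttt
HOXD10 peak, DMSO, chr2:176114947-176115246: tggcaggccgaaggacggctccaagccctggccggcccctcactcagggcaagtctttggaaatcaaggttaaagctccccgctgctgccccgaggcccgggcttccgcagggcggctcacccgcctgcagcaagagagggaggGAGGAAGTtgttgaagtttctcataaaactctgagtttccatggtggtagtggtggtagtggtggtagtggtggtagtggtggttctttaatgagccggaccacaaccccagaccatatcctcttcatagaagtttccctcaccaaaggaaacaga
HOXC12 peak, DMSO, chr12:53956909-53957208: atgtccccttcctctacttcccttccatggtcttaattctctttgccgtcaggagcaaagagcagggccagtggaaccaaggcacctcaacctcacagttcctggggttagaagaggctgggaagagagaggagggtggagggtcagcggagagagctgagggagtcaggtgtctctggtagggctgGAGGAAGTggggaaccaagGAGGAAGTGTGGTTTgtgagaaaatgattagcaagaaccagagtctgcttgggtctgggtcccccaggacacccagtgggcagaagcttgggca

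The second set shows peaks over CpG-rich sequence without those words, namely the highest-scoring DMSO peak of the HOXA window, the DMSO peak over HAGLR in the HOXD window, and the MC2580 peak over the start of HOXA11. The HOXC12 and HAGLR peaks were not the highest of their clusters and were chosen after their values were seen. Capitals mark CG dinucleotides, of which there were 15, 21 and 21 in the 300 bp.
HOXA11-AS peak, DMSO, chr7:27188480-27188779: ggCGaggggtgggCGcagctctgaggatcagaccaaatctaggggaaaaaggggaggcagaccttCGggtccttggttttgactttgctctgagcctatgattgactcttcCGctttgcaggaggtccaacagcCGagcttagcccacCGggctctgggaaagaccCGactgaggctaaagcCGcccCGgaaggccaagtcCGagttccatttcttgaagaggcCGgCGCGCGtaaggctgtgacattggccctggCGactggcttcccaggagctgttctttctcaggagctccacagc
HAGLR peak, DMSO, chr2:176174841-176175140: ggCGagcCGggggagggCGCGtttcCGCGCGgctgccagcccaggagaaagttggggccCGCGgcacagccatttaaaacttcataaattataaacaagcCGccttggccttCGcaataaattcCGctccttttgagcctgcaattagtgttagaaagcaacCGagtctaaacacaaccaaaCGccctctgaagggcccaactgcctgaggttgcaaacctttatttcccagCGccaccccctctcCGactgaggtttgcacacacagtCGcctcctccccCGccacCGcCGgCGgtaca
HOXA11 peak, MC2580, chr7:27185406-27185705: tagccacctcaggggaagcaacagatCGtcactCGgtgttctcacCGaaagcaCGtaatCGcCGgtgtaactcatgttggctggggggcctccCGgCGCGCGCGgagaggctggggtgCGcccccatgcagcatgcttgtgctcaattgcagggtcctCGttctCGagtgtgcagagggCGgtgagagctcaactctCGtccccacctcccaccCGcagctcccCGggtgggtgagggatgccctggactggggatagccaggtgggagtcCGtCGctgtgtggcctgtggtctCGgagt

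The first question was which clusters carried V5-GSE1 peaks. In the DMSO list the HOXA window held 11 peaks, the HOXC window 5, the HOXD window 2 and the HOXB window 0. In the MC2580 list the HOXA window held 2 peaks, the HOXD window 1, and the HOXB and HOXC windows 0. HOXA, HOXC and HOXD thus had peaks in DMSO-treated cells, and HOXC had none in the MC2580 list.

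**Figure D1:**
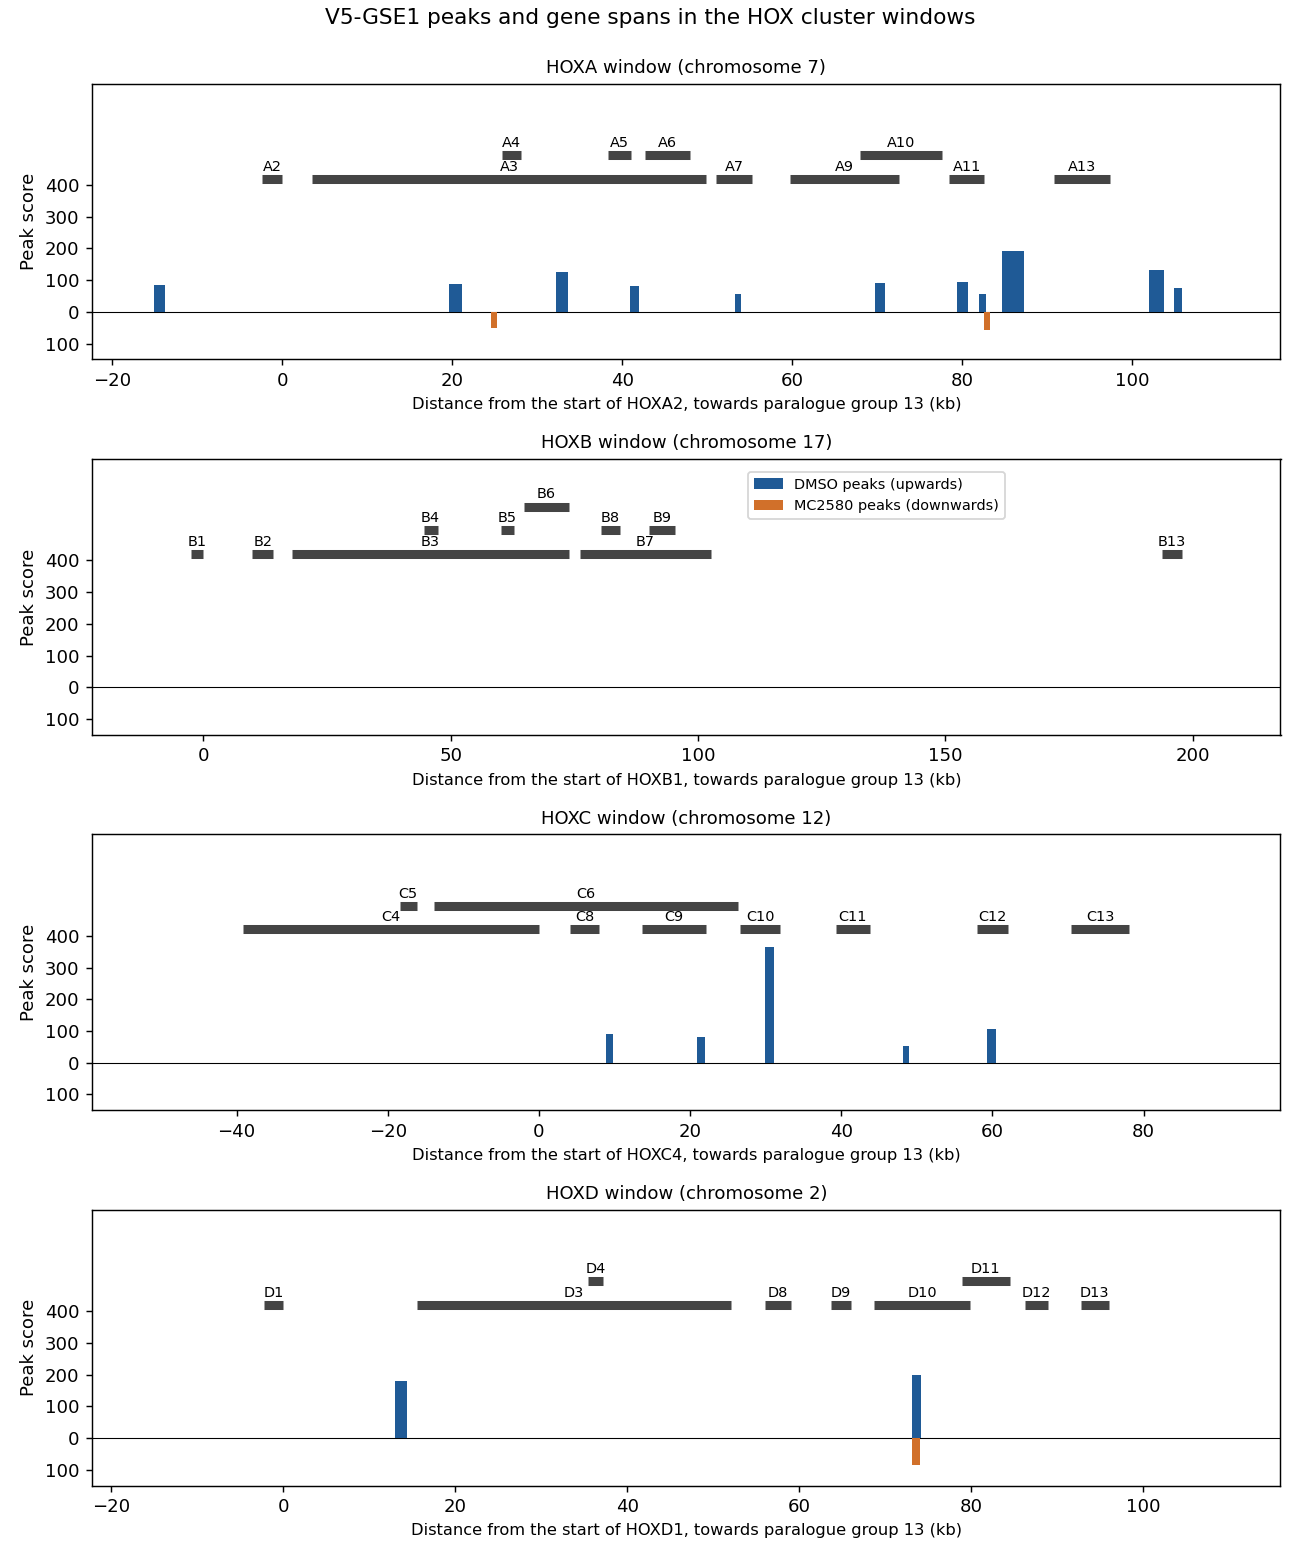
V5-GSE1 peaks and member gene spans (dark bars) in each cluster window, against the distance in kb from the start of the member of the lowest paralogue group. Bar height is the peak score, upwards for DMSO and downwards for MC2580, and bar width is the width of the peak. The highest bar is the HOXC10 peak with a score of 363.72, and the HOXB panel is empty.

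Counted by gene, 26 of the 38 members had a DMSO peak within 20 kb (68.4%), against 36.2% of all protein-coding genes. An MC2580 peak lay within 20 kb of 14 members (36.8%), against 20.1% of all protein-coding genes, and these 14 also had a DMSO peak in reach. The members were 10 of 10 in HOXA, 0 of 10 in HOXB, 8 of 9 in HOXC and 8 of 9 in HOXD for DMSO, with HOXC5 and HOXD4 as the exceptions. For MC2580 they were 8, 0, 0 and 6. Neighbouring members share peaks, so that these genes are not independent. A single peak in HOXD10 accounted for HOXD8 to HOXD13. Member spans were also shorter than usual, with a median of 4218 bp against 27471 bp.

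The chromosomes of the clusters differed widely in their share of genes near peaks, and the members were therefore read against them as well. On chromosome 7, which carries HOXA, 71.7% of 930 protein-coding genes had a DMSO peak within 20 kb. On chromosome 12, which carries HOXC, the share was 58.5%, on chromosome 2, which carries HOXD, it was 42.9%, and on chromosome 17, which carries HOXB, it was 32.4%. For MC2580 the shares on chromosomes 7, 12, 2 and 17 were 64.9%, 43.6%, 22.2% and 14.2%. Weighted by members, these shares came to 51.4% for DMSO and 36.4% for MC2580, the latter close to the 36.8% of the members. HOXC stood at 0 of 9 members in the MC2580 list, but its surroundings were also sparse, with 5.00 MC2580 peaks per Mb in its flanks against 21.8 on chromosome 12.

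At start sites, 12 members had a DMSO peak within 3 kb (31.6%), against 16.1% of all protein-coding genes. They were HOXA3, HOXA5, HOXA7, HOXA9, HOXA10, HOXA11, HOXC6, HOXC8, HOXC9, HOXC10, HOXC12 and HOXD10. With start sites of protein-coding transcripts alone the DMSO count was 11. MC2580 peaks lay within 3 kb of the start sites of 3 members, HOXA4, HOXA11 and HOXD10 (7.89%), against 7.87% of all protein-coding genes. The chromosomes of the clusters have higher shares than the genome. Weighted by the number of members on each, 26.1% of their protein-coding genes had a DMSO and 14.9% an MC2580 peak within 3 kb of a start site, so that the members stood closer to their chromosomes in DMSO and below them in MC2580. By paralogue group, group 10 was represented in every cluster that has a member of it (HOXA10, HOXC10 and HOXD10). Group 9 had DMSO peaks at HOXA9 and HOXC9 but at neither HOXB9 nor HOXD9, and the HOXA9 start site in question lies within the HOXA10 span. Groups 1, 2, 4 and 13 had no DMSO peak within 3 kb of a member start site.

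The density of peaks was then compared with the surroundings of each cluster. In the DMSO list the 4 windows together, 675350 bp, held 26.7 peaks per Mb and the flanks 10.6, against 7.20 over the genome. In the MC2580 list the values were 4.44, 3.75 and 4.42. Peaks covered 3.23% of the window sequence in DMSO and 0.359% in MC2580, against 0.959% and 0.582% of the genome. For each DMSO peak there were 0.167 MC2580 peaks in the windows (3 and 18 peaks), 0.353 in the flanks (6 and 17) and 0.618 over the whole lists. Outside 1 Mb bins with at least 40 distinct peaks of both lists the value was 0.425, and the window value rests on few peaks. The HOXA window, with 11 of the 18 DMSO and 2 of the 3 MC2580 window peaks, lies in such a bin. That bin reached 40 only with the window's own peaks, since 26 DMSO and 13 MC2580 peaks lay in it outside the window.

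**Figure D2:**
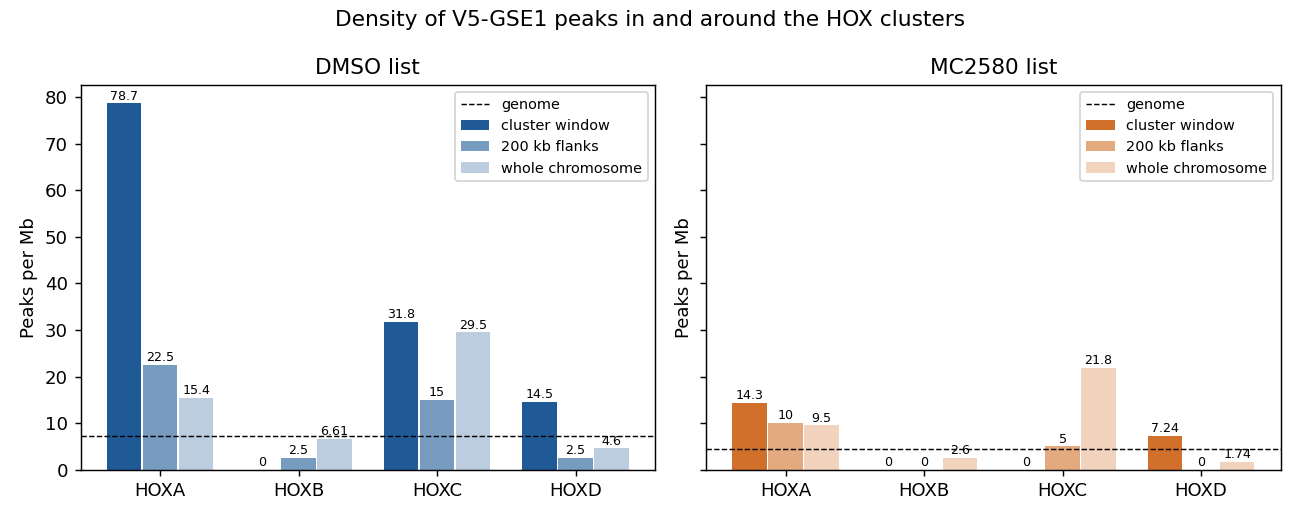
Peaks per Mb in each cluster window, in its 200 kb flanks and on its whole chromosome, for the DMSO list (left) and the MC2580 list (right), with the genome value as a dashed line. The HOXA window reached 78.7 DMSO peaks per Mb against 22.5 in its flanks, and the HOXC window had 31.8 in DMSO and 0 in MC2580.

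Among the clusters, the HOXA window was the densest, with 78.7 DMSO peaks per Mb. Its flanks held 22.5 and chromosome 7 as a whole 15.4. It lies in a 1 Mb bin with 50 distinct peaks of both lists, against 30 in the bin below it and 19 in the bin above. In DMSO peaks these 1 Mb bins held 37, 22 and 9. Of the 37, 11 fell in the window, so that the window's own peaks add to the count of its bin. The HOXC window, with 31.8 DMSO peaks per Mb, was close to the mean of its chromosome (29.5) and above its flanks (15.0). The 1 Mb bins around HOXC held between 4 and 22 DMSO peaks, so that the chromosome mean lies above its neighbourhood. The HOXD window had 14.5 against 2.50 in its flanks and 4.60 on chromosome 2. The HOXB window had 0 in both lists, on a chromosome with 6.61 DMSO and 2.60 MC2580 peaks per Mb. The nearest DMSO peak to a HOXB gene, with a score of 69.95, lay 44449 bp from HOXB1, and the nearest MC2580 peak lay 316885 bp from HOXB13.

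The scores of the window peaks were compared with those of their lists. The score assigned by the peak caller was taken as minus 10 times the log10 of the p-value of the peak, which is how this caller writes it, although the lists do not name the scale. The 18 DMSO window peaks ranged from 53.90 to 363.72 with a median of 90.66, against a median of 91.08 for the whole list. Of these, 8 lay above the median of the list and 7 reached a score of 100. The 3 MC2580 window peaks had scores of 51.60, 56.93 and 85.62, against a median of 78.10 for their list. HOX peaks were thus of middle rank in DMSO, and 1 of the 3 MC2580 peaks lay above its list's median.

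**Figure D3:**
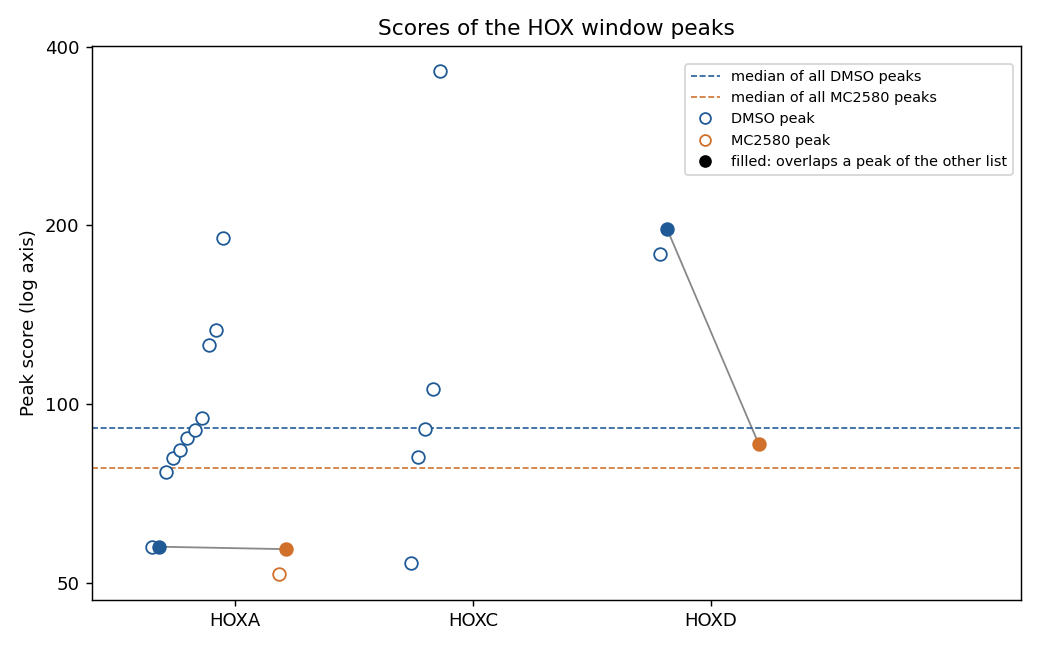
Score (log axis) of each window peak by cluster and list, ordered by score within a group. Filled points overlap a peak of the other list and grey lines join overlapping peaks, and dashed lines are the medians of the whole lists. Of 18 DMSO points 2 are filled, and HOXB, which had no window peak, is not plotted.

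At HOXC10, a gene of the posterior HOXC cluster, the DMSO peak lay on chromosome 12 from 53985813 to 53987000. It covered an annotated start site and an exon of the gene, and was within 3 kb of the start of the antisense gene HOXC-AS3. Its score of 363.72 placed it at percentile 91.5 of the DMSO list, the highest of all 18 window peaks. No MC2580 peak was called in the window, and the nearest lay 228774 bp away. Of the 200 DMSO peaks nearest to it in score outside 1 Mb bins with at least 40 peaks, 100 on each side, 65.0% overlapped an MC2580 peak, and of the 200 nearest in the whole list 74.5% did.

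The other HOXC peaks had lower scores. A peak at HOXC12 (53956522 to 53957596) lay 1618 bp from a start site over an exon, with a score of 106.01. A peak over start sites of HOXC6 and HOXC9 (53994939 to 53995988) had a score of 81.45 and also overlapped an exon of HOXC-AS2. A peak 926 bp from the start of HOXC8, in an intron of HOXC6 (54007119 to 54008058), had a score of 90.90. HOTAIR, a long non-coding RNA of the HOXC cluster known to associate with Polycomb and LSD1 complexes, had a weak peak over an exon (53967910 to 53968711) with a score of 53.90. None of these peaks overlapped an MC2580 peak.

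In HOXD, the DMSO peak with the highest score was at HOXD10, on chromosome 2 from 176114570 to 176115624, in an intron and 1153 bp from a start site. Its score was 197.19, and it overlapped the MC2580 peak from 176114602 to 176115560, with a score of 85.62, along 959 bp. The MC2580 score was thus 0.434 of the DMSO score. The other HOXD peak (176174323 to 176175659, score 178.74) lay over an exon of HAGLR, a long non-coding gene, within 3 kb of the start of HAGLROS and 10245 bp from the nearest HOXD3 start site. It had no MC2580 partner, the nearest MC2580 peak being 58762 bp away. No peak lay within 20 kb of HOXD4 or of MIR10B, the microRNA gene beside it.

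In HOXA, DMSO peaks were spread along the cluster. At the anterior end, a peak 11480 bp beyond the 3′ end of HOXA2 (27087655 to 27088873) had a score of 83.54, and a peak within 2662 bp of a HOXA3 start site (27122258 to 27123786) had a score of 87.47. An intronic peak of HOXA3 (27134885 to 27136272) reached 125.45. HOXA3 spans HOXA4, HOXA5 and HOXA6 in the annotation, so that a peak in its introns cannot be given to a single gene. Start sites of HOXA5 (27143566 to 27144656, score 80.99) and HOXA7 (27155911 to 27156606, score 57.39) lay under peaks.

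HOXA9 and HOXA10, the members best known in myeloid leukaemia, shared a peak from 27172466 to 27173588 with a score of 90.41. It covered a start site and an exon of HOXA10, lay 1591 bp from a HOXA9 start site and was 2902 bp from MIR196B. That HOXA9 start site is the upstream end of its annotated span (27175180) and lies within the span of HOXA10. The peak can therefore not be given to HOXA9 alone. Its score was at percentile 49.5 of the list. No MC2580 peak lay within 3 kb of either gene's start sites, the nearest being 4930 bp from HOXA10 and 10011 bp from HOXA9.

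The posterior part held the densest group. HOXA11 had 3 DMSO peaks within 3 kb of its start sites, with scores of 94.63, 57.47 and 190.44. The strongest (27187365 to 27189894), 2530 bp wide, overlapped exons of the antisense gene HOXA11-AS and was the highest-scoring peak of the HOXA window. Beyond HOXA13 a peak over an exon of HOTTIP, a long non-coding RNA known to act on posterior HOXA genes (27204674 to 27206360), had a score of 133.11, and a further peak (27207542 to 27208520) had 76.69.

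Other members were reached through peaks of their neighbours. The DMSO peak nearest to a start site lay 4104 bp from HOXA4, 3117 bp from HOXA6 and 4582 bp from HOXA13. In HOXC the distances were 8872 bp for HOXC4, 4414 bp for HOXC11 and 17690 bp for HOXC13. In HOXD they ranged from 7094 bp for HOXD9 to 21848 bp for HOXD13, whose span was nearer. None of these members had a DMSO peak in its own span.

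The MC2580 list had 2 HOXA peaks. The peak over the start of HOXA11 (27185192 to 27185919, score 56.93) overlapped a DMSO peak (27184610 to 27185455, score 57.47) by 264 bp. The other (27127204 to 27127939, score 51.60) lay in HOXA3, 2251 bp from the start of HOXA4, and was 3417 bp from the nearest DMSO peak. They stood at percentiles 22.2 and 6.90 of the MC2580 list. The DMSO peaks with scores of 190.44, 133.11 and 125.45 had no MC2580 partner.

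Overlap between the lists was counted with a minimum of 1 bp. An MC2580 peak was met by 2 of the 18 DMSO window peaks, a share of 11.1% with a 95% interval by Wilson's method from 3.10% to 32.8%, against 33.6% of the whole DMSO list. Of the 3 MC2580 window peaks 2 overlapped a DMSO peak, against 58.0% of the whole MC2580 list. Overlap depends on score and on place. Had each DMSO window peak the share of its own score decile, 5.71 would overlap, or 31.7%. With the shares outside dense bins 3.40 would, or 18.9%. The HOXA window, with 11 of the 18 peaks, lies in a dense bin, so that this last base does not cover most window peaks. The interval covers counting error only, and the difference was not tested.

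The windows were then compared by what kind of sequence the peaks covered. Of the 18 DMSO window peaks 16 were within 3 kb of an annotated start site of any gene (88.9%), against 35.2% of the whole list, and 12 were within 3 kb of a start site of a member. Start sites are dense here, since 66.6% of the window sequence lies within 3 kb of an annotated one, against 17.6% of the genome. The remaining peaks were the intronic peak of HOXA3 and the intergenic peak beside HOXA2. All 3 MC2580 window peaks were within 3 kb of a start site.

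In 200 bp at the peak centre, the DMSO window peaks had a median GC content of 55.2% and a median CpG ratio, observed over expected, of 0.584. For all DMSO peaks the medians were 49.0% and 0.224, and for all promoter peaks 52.0% and 0.269. Of 18 window peaks 14 exceeded the median CpG ratio of all peaks, and of 17 flank peaks 8 did. The window sequence itself is CpG-rich, with ratios of 0.510 in HOXA, 0.380 in HOXB, 0.393 in HOXC and 0.513 in HOXD, against 0.201 to 0.262 in their flanks. The peak with the lowest ratio was the HOXC12 peak (0.0841).

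**Figure D4:**
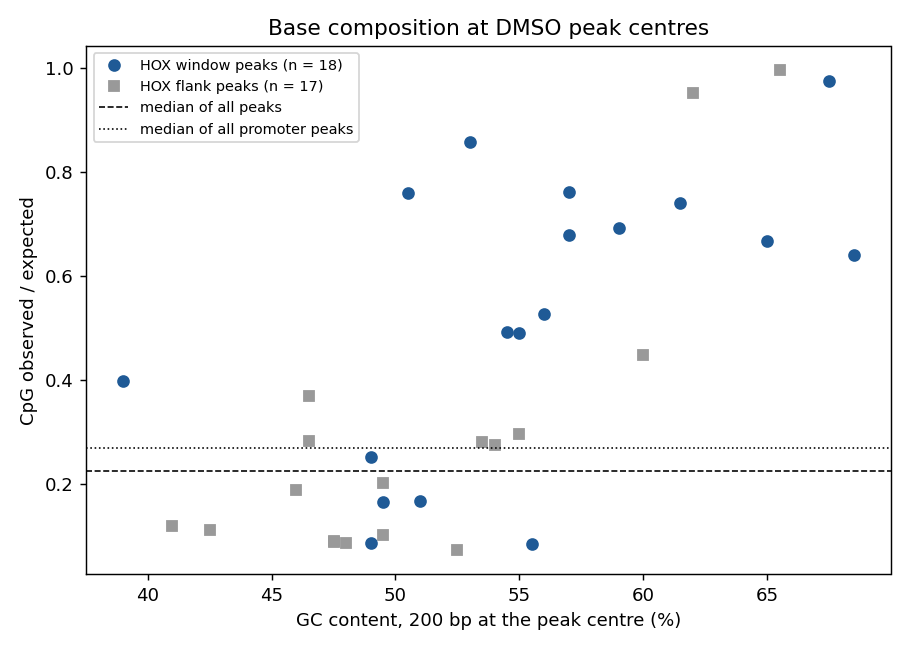
CpG observed over expected against GC content in 200 bp at the centre of DMSO peaks, for 18 window peaks and 17 flank peaks. Lines mark the medians of all DMSO peaks (0.224) and of all DMSO promoter peaks (0.269), and 14 of the window peaks lie above the first.

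Consensus words were searched on both strands in the same 200 bp. The PU.1 word occurred in 2 of 18 DMSO window peaks (HOXC12 and HOXD10), against 2.95% of all DMSO peaks. The RUNX word occurred in 2 (HOXC10 and HOXC12), against 4.65%. In the HOXC12 sequence shown above a PU.1 word and the RUNX word overlap, so that they are not separate matches. The PU.1 word of the HOXD10 peak was also in the centre of the overlapping MC2580 peak. The words TGATTNAT for PBX with HOX, AATCACNGC for GFI1 and AGGGGGCGC for CTCF were in 0 of 18 window peaks, against 2.83%, 1.24% and 0.132% of all DMSO peaks. With 18 peaks, such counts describe these sequences and no more.

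Outside the windows, the flanks held 17 DMSO and 6 MC2580 peaks, of which 1 of each overlapped. In the HOXA flanks EVX1, a homeobox gene that adjoins the posterior end of HOXA, had 3 DMSO peaks within 3 kb of its start sites, with scores of 152.29, 195.59 and 70.83, and no MC2580 partner. An intergenic peak with a score of 182.09 lay 30410 bp from the start of HOXA2. In the HOXC flanks a peak near MIR3198-2 (54227476 to 54228548) had a score of 376.22 and overlapped an MC2580 peak with a score of 167.64. A peak over an exon of the non-coding gene CISTR (53750653 to 53752458) had 302.23 and no partner. The HOXD flanks had 1 DMSO peak, in LNPK, with a score of 69.05. The 6 MC2580 flank peaks had scores from 50.30 to 167.64, with 4 beside HOXA and 2 beside HOXC, and that over HNRNPA1P73 in the HOXA flank had 61.78.

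Of 21 non-coding genes of the clusters, 14 had a DMSO peak within 20 kb and 7 an MC2580 peak, against 25.4% and 14.1% of 20745 lncRNA and miRNA genes. Within 3 kb of a start site 10 had a DMSO and 2 an MC2580 peak, against 9.32% and 4.55%. These genes lie among the members and share their peaks. Their shares were not set against the chromosomes of the clusters, which stood above the genome for protein-coding genes. Weighted by members, those chromosomes had 26.1% with a DMSO peak within 3 kb of a start site, against 16.1% over the genome. The 7 without a DMSO peak in reach were HOXB-AS1, HOXB-AS3, HOXB-AS4, MIR10A, MIR10B, MIR196A1 and MIR615. In HOXA the highest DMSO score within 20 kb was 190.44 for HOTTIP, HOXA10-AS, HOXA11-AS and MIR196B and 125.45 for HOXA-AS2 and HOXA-AS3. In HOXC it was 363.72 for HOTAIR, HOXC-AS1, HOXC-AS2, HOXC-AS3 and MIR196A2, and in HOXD 178.74 for HAGLR and HAGLROS and 197.19 for HOXD-AS2. Each of these sets shares its peak. MIR196A2, 3091 bp from the nearest DMSO peak, and MIR196B lay beside HOXC and HOXA peaks. HOXA-AS3 and HOXA11-AS were those with an MC2580 peak at a start site, with scores of 51.60 and 56.93.

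Genes that act with HOX proteins or on the clusters were counted from a fixed list. Among the TALE cofactor genes, whose products bind DNA together with HOX proteins, MEIS3 had 4 DMSO and 8 MC2580 peaks within 20 kb with scores up to 3100.00 in both. That exact score was also the highest outside dense bins in both lists, so that it was not read as equal strength. PKNOX2 had an MC2580 peak alone, with a score of 54.98. MEIS1, the partner of HOXA9, had none, the nearest DMSO peak being 874558 bp away.

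Of 16 regulators of HOX genes, 10 had a DMSO peak within 20 kb and 7 an MC2580 peak, against 36.2% and 20.1% of all protein-coding genes. With 16 genes on chromosomes that differ widely in peaks, this count was not tested. KMT2A, which encodes the Trithorax methyltransferase that maintains HOX expression, had a peak within 3 kb of a start site in both lists, with scores of 127.75 and 105.09. EED, a subunit of Polycomb repressive complex PRC2, had a start-site peak with a score of 409.11 in DMSO, and its nearest MC2580 peak, with a score of 76.32, lay 17622 bp from the gene. CDX1, a caudal homeobox activator of HOX genes, had a DMSO peak with a score of 636.71, 6295 bp from the gene, a second one of 53.53 at 4256 bp, and an MC2580 peak of 355.55 at 6208 bp. EZH2, the catalytic subunit of PRC2, had peaks within 20 kb with scores up to 116.49 and 90.92, and the acetyltransferase gene KAT7 had 90.61 and 68.63. MEN1 (52.66), AFF1 (147.47) and SUZ12 (58.60) had DMSO peaks alone. MLLT3 and PSIP1, both on chromosome 9, had 18 and 14 DMSO peaks and 14 and 6 MC2580 peaks within 20 kb, the highest scores being 181.39 and 312.27 in DMSO and 120.44 and 188.39 in MC2580. BMI1, MLLT1, DOT1L, CBX2, CDX2 and CDX4 had no peak within 20 kb in either list.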

How the data were processed

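V5 ChIP-seq of NB4 cells was analysed from 2 peak lists, assigned to DMSO and MC2580 by the names of the lists. According to its methods section and the submitters' processing notes, reads were aligned by the authors to hg38 with Bowtie (version given as 4.8.2), limited to unique matches, and peaks were called with MACS against the respective input and the EV ChIP. How both backgrounds were combined was not stated in the sources used here. Each peak's score is the deposited value of the peak caller, and the lowest scores were 51.59 and 50.04. Both lists share the EV library. Scores and peak numbers were not corrected for depth, which was unknown.

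Members, lists and words were chosen with earlier results of these data known. Positions are in hg38, counted from 1, and genes and start sites were taken from GENCODE version 44. All 38 members are accounted for. By rule, values were given for every window peak, for members and genes of the fixed lists with a peak within 20 kb, and for flank genes at up to 3 of the highest flank peaks of each cluster and list. Sequences were to be shown for the highest peak of each cluster and list. The MC2580 HOXD10 centre nearly repeats the DMSO one and was not printed. One result of the cofactor list is not reported here, nor are that list's counts. No test between conditions was possible. Wilson 95% intervals cover counting error only. Overlap functions were tested on simulated data, where 2000 of 2000 simulated peaks were assigned correctly. The software was scipy 1.17.1, pandas 2.3.3, numpy 2.4.6 and matplotlib 3.10.9 under Python 3.11.15. Alternatives tried were score limits (100, and the lowest DMSO score), removal of the widest peaks, merging, and other extensions, flanks, overlap rules, start-site rules and centre windows.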

Additional observations from a re-analysis of the deposited data

How the results depend on the processing

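No paired analysis was possible because each condition had 1 library, and no replicate could be left out. Of 97 alternative values, 74 stayed within 1.5 times the count or within the interval of the median as reported. Removing peaks wider than 7875 bp, merging peaks within 1 kb and the cut at the lowest DMSO score gave none of the other 23. The width limit could not change any value, since the widest window and flank peaks measured 2530 and 1859 bp. The cut at the lowest DMSO score could not remove a DMSO peak. Word counts of 0 that stayed at 0 are also among the 74. Depth was unknown and could not be varied, so that a peak missing from a list was not detected at that depth and is not shown to be absent. Regulator and non-coding gene counts were not varied.

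Requiring a score of at least 100, which lowers counts by construction, left 7 DMSO and 0 MC2580 window peaks, 7 and 1 flank peaks, 0 overlapping window peaks of either list, 4 and 0 members with a start-site peak, 0 members near an MC2580 peak, and a median DMSO score of 178.74, with 23 members still within 20 kb of a DMSO peak. With the gene span alone 11 members had a DMSO and 3 an MC2580 peak, and with 5 kb 6 had an MC2580 peak. Flanks of 100 kb held 9 DMSO and 2 MC2580 peaks, and flanks of 500 kb 46 and 19. An overlap of 50% of the shorter or of both peaks left 1 shared window peak in each list, the HOXD10 peak. Within 1 kb of a start site 1 member had an MC2580 peak. In 400 bp centres 1 DMSO window peak, at HOXA3, held the PBX-HOX word.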
